A study of Mus musculus with 12 samples.

Results

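Gene expression after 8 h of interleukin-12 (IL-12) was compared with that after 2 h in activated mouse CD4+ T cells. The comparison holds 9 of the 12 arrays of the series, chosen by their titles: 4 with IL-12 for 8 h (numbers 2, 3, 5 and 6) and 5 with IL-12 for 2 h (numbers 2 to 6). Splenic T cells of 6-week-old male C57BL/6 mice were purified by negative selection, activated for 48 h with CD3/28 beads, and then given IL-12 at 100 U/ml. The labels name no transgene and no other agent, and no source used here says whether the beads stayed in the culture. The 3 other arrays were untreated at 2 h (numbers 7 and 8) and a baseline with no culture time (number 5). They are not compared here and give reference levels. All 3 also entered the main fit, where the untreated arrays added to the estimate of the spread and the lone baseline array did not. No untreated 8 h sample was analysed here, so the duration of IL-12 and the time in culture after activation cannot be told apart in any value below.

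IL-12 is made by dendritic cells and macrophages and binds a receptor of the chains IL12RB1 and IL12RB2 on T cells. The kinases JAK2 and TYK2 then phosphorylate STAT4, which drives interferon-gamma and the T helper 1 (Th1) programme with T-bet. Signals from the T cell receptor and CD28 run through calcium and NFAT, NF-kappaB and the ERK kinases. They switch on immediate early genes such as the NR4A and EGR factors within minutes, and cytokine genes follow. Much of that early RNA is short-lived.

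Values are log2 intensities of 19752 genes, 1 probe set per gene, and a change is the 8 h minus the 2 h value. The title numbers fall into a run from 2 to 4 and a run from 5 to 6 for the IL-12 arrays, and each run holds both times. No label says what the numbers mean. Across genes, the median Pearson r between arrays was 0.998 within a time and run, 0.992 between runs at 1 time, and 0.994 between times in 1 run. The first principal component of the 9 arrays, with 42% of the variance, separated the runs, and the second, with 27.3%, separated the times. Changes were therefore fitted with the run as a term, and values within the runs are given for a part of the genes. Where they are not given, the change may still differ in size between the runs. Nothing in the labels ties the samples to different mice or cultures. The p-values therefore reflect the scatter among these samples alone, and part of that scatter may be technical. In bulk RNA, fewer cells of a type and less RNA per cell cannot be told apart, and the number of arrays limits the precision.

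All 8 measured CD4 T cell markers lay above the array median on every array. Their mean log2 level was 11.96 to 12.07 at 2 h and 12.14 to 12.21 at 8 h. Cd3d, a chain of the T cell receptor complex, rose by 0.30 ± 0.06 (SE, adjusted p = 0.0058), and Cd4 itself had a value of 0.18 ± 0.07 (adjusted p = 0.123). Of 15 macrophage and monocyte markers, 0 were called, and 2 or 3 lay above the array median on each array. Their mean differed between times in 1 run: it was 6.42 to 6.44 at 2 h and 6.31 to 6.34 at 8 h on arrays numbered 2 to 4, and 6.61 to 6.75 against 6.61 to 6.66 on arrays numbered 5 and 6. When this mean entered the fit as a covariate, 257 genes were called higher and 509 lower. Of the CD4 T cell markers, 2 were called higher in the main fit and 0 in this fit, where Cd3d had an adjusted p of 0.0945. Counts from this fit are given with many of the lists below, but not with all that moved. Called falls went from 6 of 23 (26.1%) to 2 among ATF4 and amino acid response genes. Among 16 hypoxia response genes, falls went from 6 (37.5%) to 1 and rises from 2 (12.5%) to 1. Over all genes, 6.36% fell and 6.27% rose in the main fit. The hypoxia median was 0.07 on arrays numbered 2 to 4 and -0.22 on arrays numbered 5 and 6. On arrays numbered 2 to 4 alone, 5 hypoxia genes were called higher and 2 lower. The part of the macrophage mean in the results was not otherwise tested. The mean of the 2 CD8 T cell markers lay between 7.76 and 8.32 on the 9 arrays, and 0 were called. That of 7 erythroid and platelet markers was 7.33 to 7.74 on arrays numbered 2 to 4 and 6.97 to 7.15 on arrays 5 and 6. Of those 7, Klf1 was called higher, but not with the replicate block (adjusted p = 0.0729) or the macrophage mean (0.185). Means of the B cell, dendritic cell, neutrophil and NK cell markers lay between 5.91 and 7.34 on all 9 arrays. Of these markers, 5 were called. The NK cell markers Klrb1c (-0.67 ± 0.08) and Ncr1 (0.38 ± 0.06) changed at levels below the array median, and Nkg7, which Th1 cells also express, rose. Ebf1, a B cell factor, changed by -0.29 ± 0.08 (adjusted p = 0.0227), which was lost with the macrophage mean (0.258) and without the 8 h array numbered 3 (0.106) or 6 (0.064) or the 2 h array numbered 2 (0.0596), 4 (0.0503) or 5 (0.0577). Batf3, a dendritic cell factor also induced in T cells, changed by -0.38 ± 0.10 (adjusted p = 0.0186), which was lost with the macrophage mean (0.204), with the replicate block (0.118) and without the 8 h array numbered 2 (0.0876) or 3 (0.0921).

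At 8 h, 1239 genes were higher (6.27% of those tested) and 1257 were lower (6.36%) than at 2 h by limma's moderated test at a Benjamini-Hochberg adjusted p under 0.05. Counts within the lists below are to be read beside these shares. The falls went much further than the rises. Called falls reached -2.58 and called rises 1.26 on the log2 scale, and 55 falls (0.278% of genes) but 1 rise (0.00506%), that of Nqo1, were at least 1 in size. The median change over all genes was -0.01 and the median SE of a change 0.069. With the title number as a replicate block in place of the run, 487 genes were called higher and 759 lower. That fit held the IL-12 arrays alone and left fewer residual degrees of freedom, as each number took a term. The 2 h array numbered 4 has no 8 h partner and added nothing to its changes. Ifng (-0.499) and Socs1 (-0.358) had the same values with that array left out of the main fit. Without it, the main fit called 841 higher and 1027 lower. What part pairing had in calls lost with the block was not tested. Without the 8 h array numbered 3, 634 were called higher.

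Within both runs, all 8 h arrays lay above all 2 h arrays for 1745 genes (8.83%) and below them for 1728 (8.75%). Genes both called and apart in this way were 5.54% of all for rises and 5.67% for falls. Over all 9 arrays regardless of run, the 4 at 8 h lay above the 5 at 2 h for 3.98% of genes and below them for 4.23%. Of the 2496 called genes, 2485 had the same sign in both runs. Arrays numbered 2 to 4 alone gave 3225 calls and arrays numbered 5 and 6 alone, with 2 against 2, gave 370. Of these, 276 genes were called in both, 270 of them with the same sign. Called falls had a median of -0.38 on arrays numbered 2 to 4 and -0.33 on arrays numbered 5 and 6, and called rises 0.32 and 0.25.

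**Figure D1:**
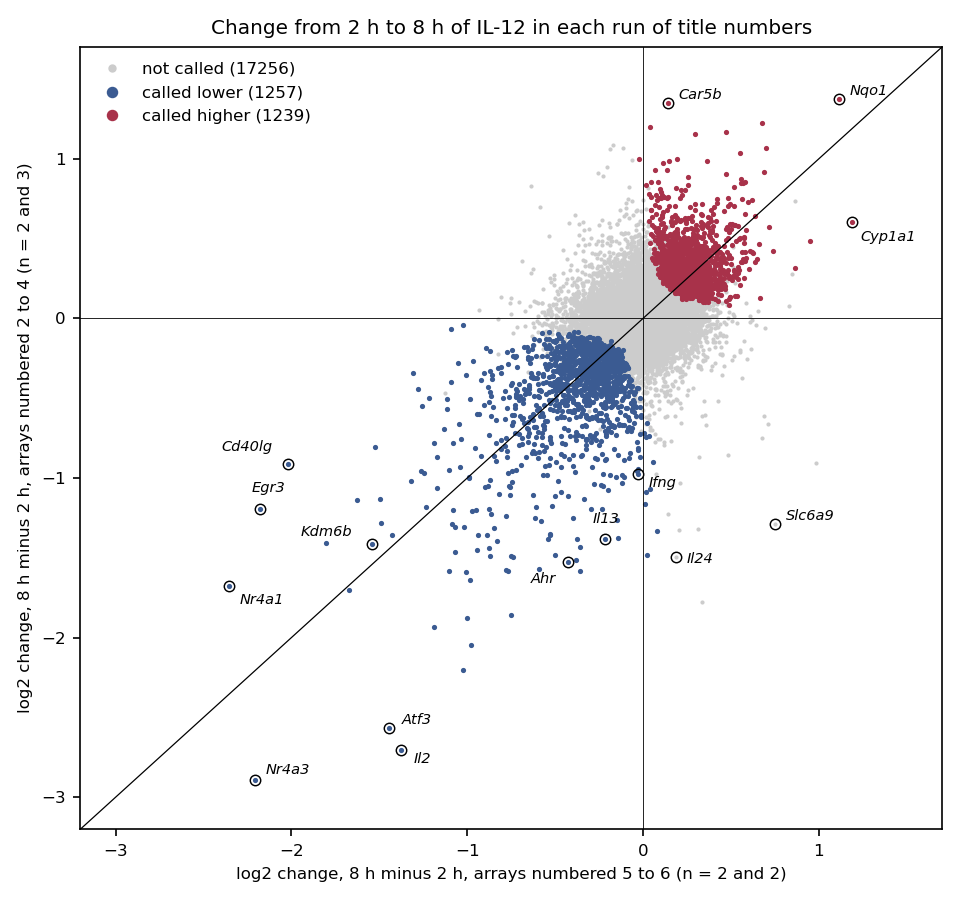
Change of each gene from 2 h to 8 h of IL-12 (log2 intensity, 8 h minus 2 h) on arrays numbered 2 to 4 (vertical axis) against arrays numbered 5 to 6 (horizontal axis), with called genes in colour and the line of equal change drawn. Nr4a3 lies below -2 on both axes (-2.89 and -2.21) while Nqo1, the furthest rise, lies at 1.37 and 1.12, and Ifng lies at -0.98 on the vertical and -0.03 on the horizontal axis.

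The deepest falls were in the immediate early transcription factors of T cell receptor signalling. Of 27 measured, 24 fell and 0 rose, with a median change of -0.70, beside -0.01 over all genes. The medians were -0.87 on arrays numbered 2 to 4 and -0.63 on arrays numbered 5 and 6. Nr4a3, an orphan nuclear receptor induced by receptor signals, read 10.62, 10.81 and 10.70 at 2 h on arrays 2, 3 and 4 and 11.65 and 11.67 on arrays 5 and 6. At 8 h it read 7.87 and 7.77 on arrays 2 and 3 and 9.42 and 9.48 on arrays 5 and 6. Every 8 h array lay below every 2 h array, and the change was -2.58 ± 0.11 (adjusted p = 1.22e-08), a 5.99-fold fall. Both untreated arrays, at 11.76 and 11.67, were at the level of the IL-12 2 h arrays of their run, and the baseline array, at 9.59, was near the 8 h arrays of that run.

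Nr4a1, its close relative and a common reporter of receptor signalling, read 10.91, 10.89 and 10.89 at 2 h on arrays 2, 3 and 4 and 12.06 on both arrays 5 and 6. The 8 h values were 9.24 and 9.21 on arrays 2 and 3 and 9.69 and 9.73 on arrays 5 and 6. The times did not overlap, and the change of -1.98 ± 0.10 (adjusted p = 5.68e-08) was larger on arrays numbered 5 and 6 (-2.35) than on arrays numbered 2 to 4 (-1.67), with an adjusted p of 0.00417 for the difference. Nr4a2, the third member of the family, fell by 1.38 ± 0.08 on the log2 scale, from 8.84 to 9.82 over the 2 h arrays to 7.52 to 8.37 over the 8 h arrays. All 3 NR4A genes thus fell without overlap of the times.

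The RefSeq promoter window of Nr4a1 (250 bases before to 50 after its start, GRCm38.p6) is shown because it holds the letters TGACGCA, a cyclic AMP response element-like motif searched on both strands, at 4 places, set in capitals. It lies at chr15:101266596-101266895 on the plus strand.
Nr4a1: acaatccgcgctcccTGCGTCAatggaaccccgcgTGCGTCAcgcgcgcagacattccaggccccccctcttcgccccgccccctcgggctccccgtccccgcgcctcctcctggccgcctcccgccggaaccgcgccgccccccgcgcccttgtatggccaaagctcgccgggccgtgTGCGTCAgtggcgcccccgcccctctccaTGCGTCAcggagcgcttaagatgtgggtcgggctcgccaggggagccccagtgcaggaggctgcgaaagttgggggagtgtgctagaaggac
The letters occur in 2.12% of all 32851 windows of this length. Of the 18 immediate early genes with a window, 2 held them, Nr4a1 and Fosb, or 11.1%, beside 3.15% of all tested genes with a window. A match is a description of these letters and not a binding site.

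The EGR zinc-finger factors fell as well. Egr2 read 10.94, 10.78 and 10.98 at 2 h on arrays 2, 3 and 4, and 11.87 and 11.90 on arrays 5 and 6. Its 8 h values were 9.74 and 9.80 on arrays 2 and 3 and 10.33 and 10.45 on arrays 5 and 6, so that the times were apart, and the change was -1.30 ± 0.08 (adjusted p = 2.39e-07). Egr1 fell by 0.98 ± 0.06 on the log2 scale with similar values in both runs (-0.93 and -1.04). Egr3 changed by -1.64 ± 0.15, with -1.19 on arrays numbered 2 to 4 and -2.18 on arrays numbered 5 and 6 (adjusted p of the difference 0.000988). Its 8 h values lay between 8.46 and 8.78 on all 4 arrays, while its 2 h values were 9.64 to 9.70 in the first run and 10.84 and 11.04 in the second.

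Atf3, a stress- and receptor-induced repressor of the ATF/CREB family, read 11.50 to 11.56 at 2 h on arrays numbered 2 to 4 and 11.00 and 11.08 on arrays 5 and 6. Its 8 h values were 8.97 and 8.98 on arrays 2 and 3 and 9.61 and 9.58 on arrays 5 and 6. Both runs kept the times apart, and the change was -2.06 ± 0.16 (adjusted p = 1.86e-06). It was larger in the first run (-2.57 against -1.45, adjusted p of the difference 0.00015). Tgif1, a homeobox repressor, fell by 0.89 ± 0.05 on the log2 scale in near equal steps of -0.87 and -0.92. In the fit with the macrophage markers, 17 of the 27 immediate early genes were called lower, and with the replicate block 21.

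**Figure D2:**
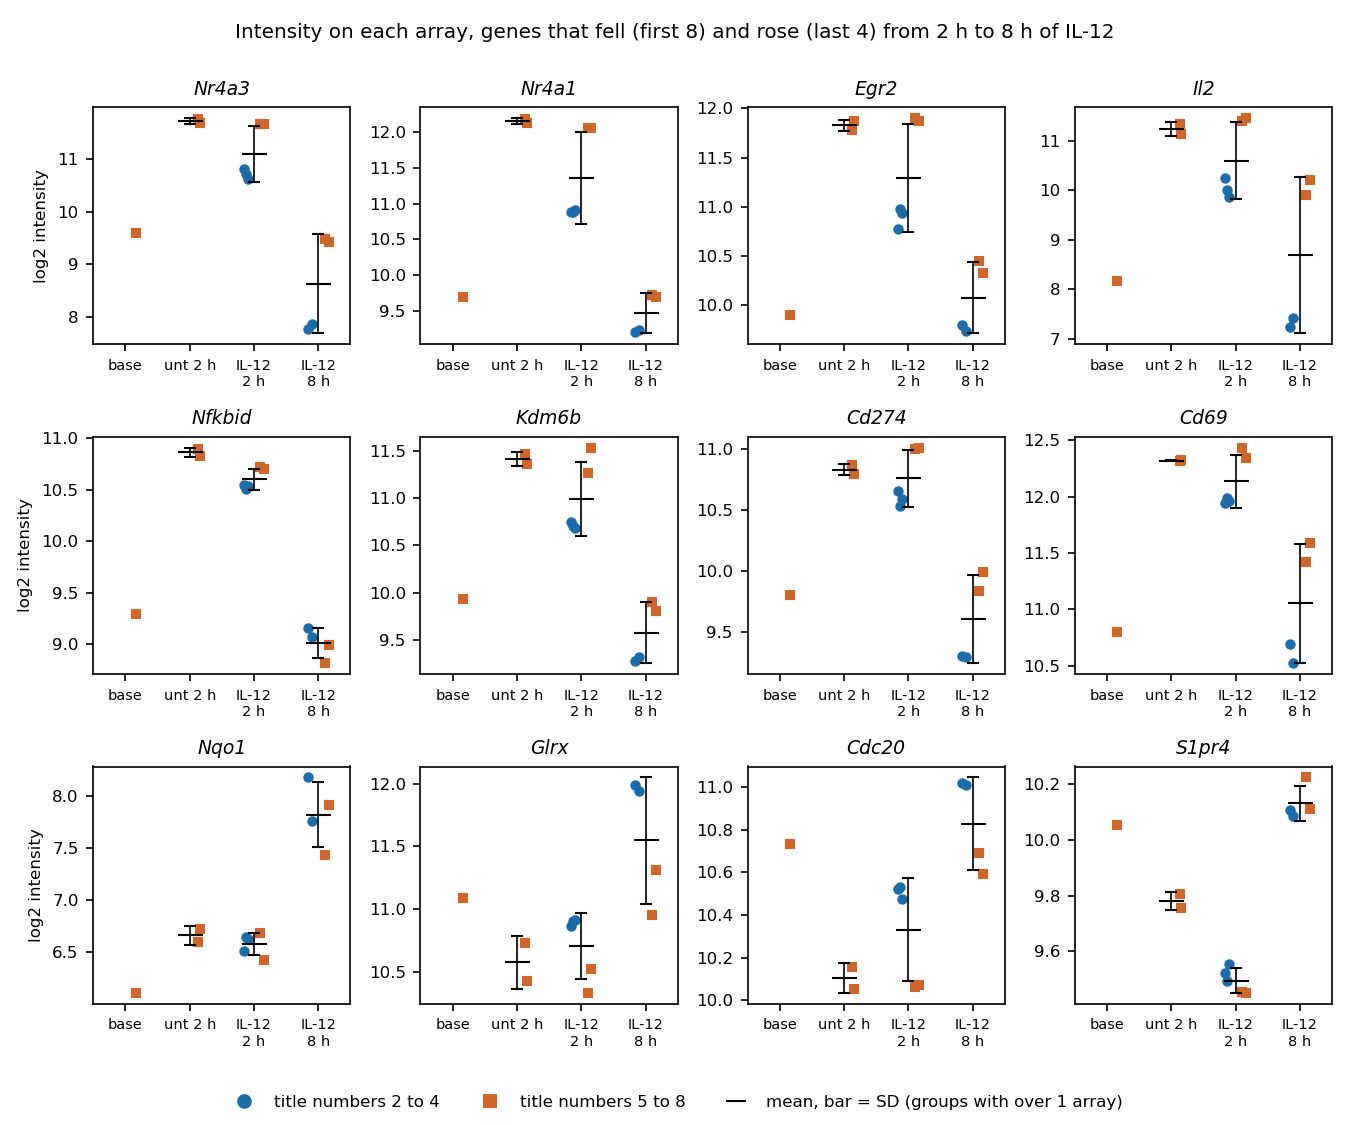
Log2 intensity (vertical axis) of 8 genes that fell and 4 that rose, on every baseline, untreated 2 h, IL-12 2 h and IL-12 8 h array, with circles for title numbers 2 to 4, squares for 5 to 8 and the mean with SD for groups of over 1 array. The 8 h points of Nr4a3, Nr4a1, Egr2, Nfkbid, Kdm6b, Cd274 and Cd69 lie below all 2 h points, while those of Il2 overlap them across runs, as Il2 at 8 h on arrays 5 and 6 (10.21 and 9.90) reaches the 2 h values on arrays 2 to 4.

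Genes of the NF-kappaB system moved the same way. NF-kappaB dimers are held in the cytoplasm by inhibitor proteins whose own genes they induce, and A20 (Tnfaip3) ends the signal. Of 18 measured subunits and targets, 15 fell and 0 rose, with a median of -0.50. Nfkbid, a nuclear inhibitor-like cofactor, read 10.53, 10.54 and 10.50 at 2 h on arrays 2, 3 and 4 and 10.70 and 10.71 on arrays 5 and 6. At 8 h it read 9.07 and 9.16 on arrays 2 and 3 and 8.99 and 8.82 on arrays 5 and 6. All 8 h arrays lay below all 2 h arrays, and the change was -1.59 ± 0.08 (adjusted p = 3.38e-08). Rel, the c-Rel subunit, changed by -1.10 ± 0.08, Tnfaip3 by -1.06 ± 0.07 and Nfkbia, the inhibitor IkappaB-alpha, by -0.75 ± 0.07, each without overlap of the 9 arrays. Tnip3, a partner of A20 outside that list and among the 20 largest falls, fell by 1.35 ± 0.17 on the log2 scale, more in the first run (-1.86) than in the second (-0.75, adjusted p of the difference 0.00171). In the fit with the macrophage markers, 10 of the 18 listed genes were called lower, and with arrays numbered 5 and 6 alone 5.

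The RefSeq promoter windows (GRCm38.p6) of 3 of these genes are shown because each holds the NF-kappaB consensus, known as the kappaB motif, in capitals. They lie at chr12:55492598-55492897 (Nfkbia), chr10:19015361-19015660 (Tnfaip3) and chr11:23770920-23771219 (Rel), all on the minus strand.
Nfkbia: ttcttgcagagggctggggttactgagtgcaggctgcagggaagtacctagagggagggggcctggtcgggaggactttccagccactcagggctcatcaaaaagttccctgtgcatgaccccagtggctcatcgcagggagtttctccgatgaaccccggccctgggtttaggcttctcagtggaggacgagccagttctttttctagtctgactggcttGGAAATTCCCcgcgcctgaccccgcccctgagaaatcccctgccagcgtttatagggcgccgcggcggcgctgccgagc
Tnfaip3: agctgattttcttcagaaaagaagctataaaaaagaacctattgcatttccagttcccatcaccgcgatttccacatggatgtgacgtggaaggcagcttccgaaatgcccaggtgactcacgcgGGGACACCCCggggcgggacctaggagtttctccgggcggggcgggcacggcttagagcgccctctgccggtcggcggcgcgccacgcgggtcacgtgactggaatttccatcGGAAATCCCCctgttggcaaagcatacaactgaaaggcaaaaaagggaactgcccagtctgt
Rel: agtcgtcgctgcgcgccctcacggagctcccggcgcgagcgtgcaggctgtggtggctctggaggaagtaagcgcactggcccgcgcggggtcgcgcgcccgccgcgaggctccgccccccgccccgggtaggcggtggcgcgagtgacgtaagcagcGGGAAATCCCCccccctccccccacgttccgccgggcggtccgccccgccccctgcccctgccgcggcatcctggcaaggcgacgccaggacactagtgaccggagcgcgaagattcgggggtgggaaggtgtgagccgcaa
Nfkbia holds 1 match and Tnfaip3 and Rel 2 each, searched on both strands, with the 2 of Rel overlapping. The motif occurs in 8.46% of all windows. Of the 16 genes of the list with a window, 8 held it, or 50%, beside 11.0% of all tested genes with a window.

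Feedback genes of ERK and receptor signalling fell in 14 of 22 cases, with a median of -0.30, and 9 were called lower with the macrophage mean as covariate. Dgkz, which ends diacylglycerol signals, was the 1 rise (0.25 ± 0.07). No member was called higher with the replicate block, with that covariate, or without the 2 h array numbered 3, 4 or 6 or the 8 h array numbered 2, 3 or 6. Dusp4 and Dusp5, phosphatases that switch off ERK, changed by -1.17 ± 0.08 and -0.65 ± 0.06. Dusp4 read 10.01 to 10.03 at 2 h and 8.58 and 8.73 at 8 h on arrays numbered 2 to 4, and 10.58 and 10.51 against 9.62 and 9.59 on arrays 5 and 6. All 4 of its 8 h values lay below all 5 at 2 h. Rgs2, a brake on G protein signalling, changed by -1.15 ± 0.10, with the times apart within each run but overlapping across runs. Among 21 components of the receptor complex and its proximal signalling, 4 fell and 4 rose, with a median of 0.07. The fallen ones included the adaptors Malt1 (-0.67 ± 0.07) and Bcl10 (-0.49 ± 0.07), which link the receptor to NF-kappaB, and Lcp2, the adaptor SLP-76 (-0.34 ± 0.06). The count of rises was 2 without the 8 h array numbered 3, 1 with the replicate block and 0 with the macrophage mean.

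Of 24 measured cytokine genes, 17 fell and 0 rose, with a median of -0.47, and 8 were called lower with the macrophage mean. Il2, the T cell growth factor, read 9.85 to 10.24 at 2 h on arrays 2 to 4 and 11.46 and 11.40 on arrays 5 and 6. After 8 h it read 7.42 and 7.23 on arrays 2 and 3 and 10.21 and 9.90 on arrays 5 and 6. Within each run the times were apart, across runs they overlapped, and the change was -2.10 ± 0.20 (adjusted p = 1.32e-05), with -2.71 in the first run and -1.37 in the second. The baseline array read 8.17. Lif, a cytokine of the interleukin-6 family, read 10.91 to 10.93 at 2 h on arrays numbered 2 to 4 and 10.87 and 10.90 on arrays 5 and 6, against 8.97 and 8.99 on arrays 2 and 3 and 9.72 and 9.66 on arrays 5 and 6 at 8 h. Its 5 values at 2 h lay close together, the 8 h values were all below them, and the change was -1.60 ± 0.11 (adjusted p = 9.59e-07).

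Cytokines of the type 2 response fell too. Il4, the signature Th2 cytokine, read 10.76, 10.52 and 10.62 at 2 h on arrays 2, 3 and 4 and 9.53 and 9.46 on arrays 5 and 6. The 8 h values were 8.75 and 8.76 on arrays 2 and 3 and 8.53 and 8.45 on arrays 5 and 6. The change was -1.48 ± 0.14 (adjusted p = 1.42e-05) with no overlap. Its neighbour Il13, the next protein-coding gene to Il4 in the RefSeq gene table of GRCm38.p6, changed by -0.85 ± 0.17 (adjusted p = 0.00456), with -1.38 in the first run and -0.21 in the second. The Il13 call was lost with the macrophage mean (0.13). Il3, a growth factor for blood cell precursors, fell by 1.67 ± 0.18 on the log2 scale with no overlap of the 9 arrays. Csf2, which encodes GM-CSF and is adjacent to Il3, had a pooled value of 0.05 (adjusted p = 0.9). That value pools unlike changes, as the runs differed for Csf2 at an adjusted p under 0.05 in the interaction test. Of 12 measured Th2 genes, 6 fell and 0 rose, with 2 called lower under the macrophage covariate. Gata3, the master factor of that lineage, changed by -0.38 ± 0.09 (adjusted p = 0.00994). That call of Gata3 was lost with the replicate block (adjusted p = 0.0893), with the macrophage mean (0.0958) and without the 8 h array numbered 3 (0.0571).

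TNF superfamily ligands fell in 8 of 14 cases and rose in 1, with a median of -0.37. The rise was Tnfsf13b, the B cell survival factor BAFF (0.26 ± 0.06), and the count was 0 with the replicate block, with the macrophage mean, and without either array numbered 5 or the 8 h array numbered 3. Cd40lg, the ligand by which helper T cells activate B cells and macrophages, read 9.22, 9.01 and 8.79 at 2 h on arrays 2, 3 and 4 and 10.80 and 10.57 on arrays 5 and 6. Values at 8 h were 8.14 and 8.05 on arrays 2 and 3 and 8.56 and 8.78 on arrays 5 and 6. The lowest 2 h value, 8.79, stood just above the highest 8 h value, 8.78, and the change was -1.42 ± 0.17 (adjusted p = 0.00011). It was larger on arrays numbered 5 and 6 (-2.02) than on arrays numbered 2 to 4 (-0.91, adjusted p of the difference 0.0072). Tnf changed by -0.89 ± 0.09, its neighbour Lta, which encodes lymphotoxin-alpha, by -1.03, while Ltb on its other side had a value of -0.13 (adjusted p = 0.284). Tnfsf14 (LIGHT) changed by -1.01 ± 0.10 and Fasl, a death ligand, by -0.88 ± 0.09, the latter at levels below the array median.

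Chemokine ligands fell in 6 of 14 cases and rose in 1, with a median of -0.32. The rise was Ccl5, the T cell chemokine RANTES (0.38 ± 0.10, adjusted p = 0.023), and the count was 0 with the replicate block, with the macrophage mean, and without any array numbered 2 or 3 or the 8 h array numbered 5. Cxcl10, an interferon-induced attractant of Th1 cells, read 10.07, 10.01 and 10.10 at 2 h on arrays 2, 3 and 4 and 9.25 and 9.45 on arrays 5 and 6. Values at 8 h were 8.02 and 8.00 on arrays 2 and 3 and 8.56 and 8.18 on arrays 5 and 6. No 8 h array reached a 2 h array, the change was -1.56 ± 0.16 (adjusted p = 2.97e-05), and the untreated arrays read 8.88 and 8.97. Ccl4 fell from 7.66 to 8.05 at 2 h to 6.81 to 7.07 at 8 h (adjusted p = 1.07e-06), and its neighbour Ccl3 changed by -0.46 ± 0.10. In the fit with the macrophage markers, 2 of the 14 ligands were called lower, and with the replicate block 4.

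Among 18 chemokine and homing receptors, 7 fell and 5 rose, with a median of -0.01. Ccr8 changed by -1.10 ± 0.09 and Gpr183, an oxysterol receptor that positions lymphocytes, by -0.71 ± 0.06, both without overlap. S1pr4, a sphingosine phosphate receptor of lymphocytes that was not in the list, rose by 0.64 ± 0.05. It read 9.45 to 9.55 on the 5 arrays at 2 h and 10.09 to 10.23 on the 4 at 8 h, so that its times did not overlap. The count of rises in the list was 2 without the 8 h array numbered 3, 3 without the 8 h array numbered 2 or the 2 h array numbered 4, 2 with the replicate block and 1 with the macrophage mean.

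Costimulators and checkpoints fell in 13 of 25 cases and rose in 2, with a median of -0.21, and with the macrophage mean 8 were called lower and 0 higher. Cd274, which encodes the inhibitory ligand PD-L1, read 10.59, 10.65 and 10.53 at 2 h on arrays 2, 3 and 4 and 11.01 and 11.00 on arrays 5 and 6. Values at 8 h were 9.30 and 9.31 on arrays 2 and 3 and 9.99 and 9.84 on arrays 5 and 6. No values overlapped and the change was -1.20 ± 0.06 (adjusted p = 5.39e-08), with -1.29 and -1.09 in the runs. Pdcd1lg2, the adjacent gene for the related ligand PD-L2, changed by -1.15 ± 0.12. Havcr2 (TIM-3) changed by -0.95 ± 0.08, Pdcd1 (PD-1) by -0.63 ± 0.07, and Cd69, an early activation marker that keeps cells in the tissue, by -1.14 ± 0.09. Cd226, an adhesion costimulator, rose by 0.23 ± 0.06, and the count of rises was 0 with the replicate block and 1 without the 8 h array numbered 3. Cd28 rose by 0.24 ± 0.06 (adjusted p = 0.0115). It was not called with the replicate block (adjusted p = 0.092), with the macrophage mean (0.158) or without the 8 h array numbered 2 (0.0515).

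Genes of the IL-12 and Th1 programme were divided. Of 21 measured, 9 fell and 2 rose, with a median of -0.23. The receptor chains and the factors of the pathway showed small pooled values: Il12rb1 0.13 ± 0.07 (adjusted p = 0.311), Il12rb2 -0.12 ± 0.09 (0.475), Stat4 0.08 ± 0.06 (0.486) and Tbx21, which encodes T-bet, -0.16 ± 0.07 (0.2). In limma's fit of arrays numbered 2 to 4 alone, Il12rb2 (0.0143) and Tbx21 (0.0381) were called lower, and Il12rb1 (0.895) and Stat4 (0.111) were not called. On arrays numbered 5 and 6 alone none was called, with Il12rb2 at 0.11 and Tbx21 at -0.06. The interaction test called no run difference for these genes. Jak2, the receptor kinase, fell by 0.59 ± 0.09 on the log2 scale (adjusted p = 0.000493), with all 8 h arrays below all 2 h arrays. Nkg7, a granule protein of cytotoxic and Th1 cells, rose by 0.52 ± 0.06 (adjusted p = 8.21e-05), from 10.25 to 10.66 at 2 h to 10.87 to 11.09 at 8 h. The count of rises in the list was 1 without the 8 h array numbered 2 or 3, and 1 with the replicate block. With the macrophage mean, 5 were called lower and 1 higher.

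Ifng, the main product of the pathway, read 11.90 to 12.04 at 2 h on arrays 2 to 4 and 11.25 and 11.20 on arrays 5 and 6. After 8 h it read 10.94 and 11.07 on arrays 2 and 3 and 11.28 and 11.12 on arrays 5 and 6. The untreated arrays read 9.69 and 9.40 and the baseline array 9.35, below all 9 arrays with IL-12. Only in the first run were the times apart, and the pooled change of -0.55 ± 0.14 (adjusted p = 0.0227) consisted of -0.98 there and -0.03 in the second (adjusted p of the difference 0.00179). The call was lost with the replicate block (adjusted p = 0.122), without the 8 h array numbered 2 (0.107) or 3 (0.106), and without the 2 h array numbered 2 (0.0545), 3 (0.056) or 4 (0.0573). It was also lost with the macrophage mean (0.33).

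Gadd45b, which promotes interferon-gamma production downstream of IL-12 and IL-18, fell by 1.15 ± 0.12 on the log2 scale without overlap. The 2 chains of the IL-18 receptor are encoded next to each other. Il18rap changed by -0.58 ± 0.06 (adjusted p = 3.77e-05), with all 8 h values (7.65 to 7.73) below all 2 h values (8.15 to 8.38). Il18r1 had a value of -0.23 ± 0.10 (adjusted p = 0.165), with overlapping arrays. The signalling genes Irak2 (-0.65 ± 0.07) and Traf6 (-0.53 ± 0.08) also fell, among 7 of 12 genes of the IL-18 and IL-1 receptor list. The 2 rises of that list were the inhibitory receptor Sigirr (0.31 ± 0.08) and the kinase Irak1 (0.20 ± 0.06). Their count was 0 with the replicate block, with the macrophage mean and without either array numbered 6, and 1 without any array numbered 2 or 3 or the 2 h array numbered 4.

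Cytokine receptors and feedback inhibitors fell in 8 of 23 cases and rose in 1, with a median of -0.17, and 3 were called lower with the macrophage mean. The rise was Pim2, a survival kinase induced by cytokines (0.31 ± 0.06), with a count of 0 with the replicate block. Il6ra, the interleukin-6 receptor, changed by -0.61 ± 0.06 and Il15ra by -0.60 ± 0.06, both without overlap of the times. Cish, an inhibitor induced by STAT5, changed by -0.68 ± 0.13, with -1.05 in the first run and -0.23 in the second. The Cish call was lost with the macrophage mean (adjusted p = 0.066). Socs1, an inhibitor of JAK kinases, changed by -0.38 ± 0.10 (adjusted p = 0.0227), and Socs3 had a value of -0.19 ± 0.09 (0.227), with a second, dimmer probe set at 0.02. The call of Socs1 was lost with the replicate block (0.132), without the 8 h array numbered 2 (0.1) or 3 (0.115), and without the 2 h array numbered 2 (0.0535), 3 (0.0558) or 4 (0.057). It was also lost with the macrophage mean (0.264). The list count was 4 without either array numbered 2, 5 without the 2 h array numbered 3 or 4, and 5 with the replicate block. Il2ra, the high-affinity chain for interleukin-2, had a value of 0.08 ± 0.05 (adjusted p = 0.396).

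Interferon-responsive genes were mixed. Of 31 type I interferon-stimulated genes 9 fell (29%) and 4 rose (12.9%), with a median of -0.09. Of 20 interferon-gamma GTPases and antigen presentation genes 7 fell (35%) and 2 rose (10%), with a median of -0.03. Over all genes, 6.36% fell and 6.27% rose. Irf8 fell by 0.92 ± 0.07 on the log2 scale, from 12.67 to 12.74 at 2 h to 11.60 to 11.95 at 8 h. Irf1 fell by 0.35 ± 0.06, while a dimmer probe set of Irf1 stood at -0.01. The Irf1 call was lost when probe sets were averaged and with the macrophage mean (adjusted p = 0.0744). Rtp4 changed by -0.79 ± 0.09 and Ifih1, a sensor of viral RNA, by -0.72 ± 0.10, while Ms4a4c rose by 0.70 ± 0.08. With the replicate block, 4 type I genes were called lower and 2 higher, and with the macrophage mean 4 and 1. Without the 8 h array numbered 2 or 3, 5 were called lower, and without the 8 h array numbered 2 or 5 or the 2 h array numbered 2, 2 were called higher. The 2 rises of the second list were 0 to 1 without any array of the 9 and 0 with the replicate block, where 4 falls were called. That list had 1 fall and 0 rises with the macrophage mean.

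Of 10 Th17 genes 5 fell and 0 rose, of 15 regulatory T cell genes 5 fell and 0 rose, and of 14 follicular helper genes 8 fell and 1 rose. The rise was Sh2d1a, the adaptor SAP (0.32 ± 0.09), and the count was 0 with the replicate block, with the macrophage mean and without either array numbered 3 or 5, the 2 h array numbered 4 or the 8 h array numbered 2. With the macrophage mean, 3 Th17 and 2 regulatory genes were called lower. Il21, a cytokine that helps B cells, read 9.48 to 9.57 at 2 h on arrays numbered 2 to 4 and 10.08 and 10.26 on arrays 5 and 6, and 8.87 to 9.10 on the 4 arrays at 8 h. Its change of -0.82 ± 0.13 (adjusted p = 0.000823) was -0.44 in the first run and -1.28 in the second (adjusted p of the difference 0.00262). Ahr, the ligand-activated aryl hydrocarbon receptor, read 10.31 to 10.47 at 2 h against 8.87 and 8.85 at 8 h in the first run. In the second it read 10.86 and 10.74 against 10.39 and 10.36. Its change was -1.02 ± 0.16 (adjusted p = 0.000728), and the runs differed (-1.52 and -0.43, adjusted p 0.000374). Among the cytokine genes, Il10, which is anti-inflammatory, fell by 0.35 ± 0.08 on the log2 scale (adjusted p = 0.0105). That call was lost without the 8 h array numbered 2 (0.0544) and with the macrophage mean (0.208).

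The TGF-beta pathway held 9 falls and 0 rises among 17 genes, with a median of -0.24, with 6 falls under the replicate block and 4 under the macrophage covariate. Skil and Ski, which repress SMAD factors, changed by -1.21 ± 0.08 and -0.40 ± 0.06, and Tgfbr1, the signalling receptor, by -0.72 ± 0.12. Skil read 10.09 to 10.65 at 2 h and 8.78 to 9.30 at 8 h, with no overlap. Of 19 chromatin modifiers, 6 fell and 3 rose, with a median of -0.06. The rises were Tet1 (0.44 ± 0.09), Kdm5b (0.33 ± 0.08) and Ezh1 (0.25 ± 0.06), and their count was 0 with the macrophage mean and 1 without the 8 h array numbered 2. Kdm6b, the histone H3 lysine demethylase JMJD3, fell most. It read 10.68, 10.75 and 10.71 at 2 h on arrays 2, 3 and 4 and 11.53 and 11.27 on arrays 5 and 6, against 9.32 and 9.28 on arrays 2 and 3 and 9.81 and 9.90 on arrays 5 and 6 at 8 h. The change of -1.47 ± 0.07 (adjusted p = 1.69e-08) was alike in the runs (-1.41 and -1.54). Tet2, which like Tet1 oxidises methylcytosine, fell by 0.53 ± 0.07 on the log2 scale.

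**Figure D3:**
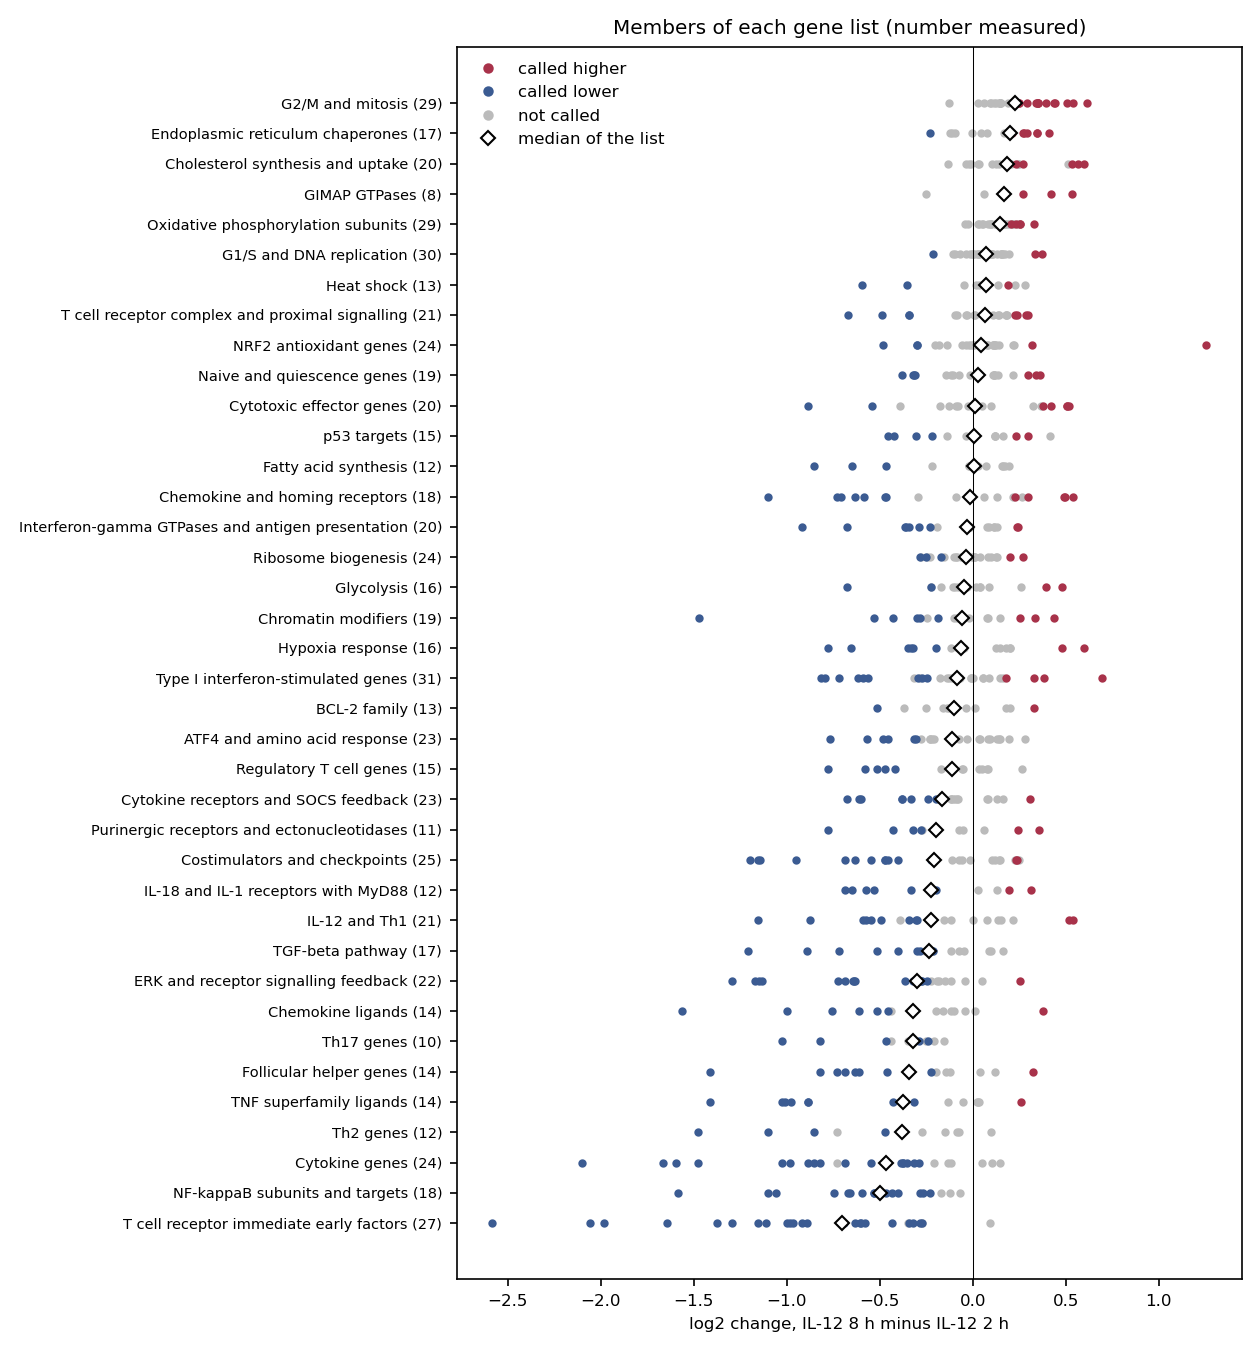
Change of every measured member of 38 gene lists from 2 h to 8 h of IL-12 (horizontal axis, log2 intensity, 8 h minus 2 h), coloured by call, with a diamond at the median of each list and lists ordered by that median. Immediate early factors lie lowest with a median of -0.70, and G2/M genes highest with a median of 0.23.

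Rises were smaller and led by mitosis genes. Of 29 measured G2/M genes, which carry out chromosome segregation and division, 16 rose and 0 fell, with a median of 0.23. The medians were 0.30 on arrays numbered 2 to 4, with 28 members above 0, and 0.18 on arrays numbered 5 and 6, with 25 above 0. Cdc20, the activator of the anaphase-promoting complex, read 10.47, 10.52 and 10.53 at 2 h on arrays 2, 3 and 4 and 10.07 and 10.06 on arrays 5 and 6. Values at 8 h were 11.01 and 11.02 on arrays 2 and 3 and 10.59 and 10.69 on arrays 5 and 6. All 8 h values were above all 2 h values, and the change was 0.54 ± 0.05 (adjusted p = 1.92e-05). Bub1b, a spindle checkpoint kinase, rose by 0.51 ± 0.07, and the mitotic motors Kif2c and Kif20a by 0.44 ± 0.06 and 0.43 ± 0.06, each without overlap. With the replicate block 9 of the 29 were called, in the fit with the macrophage markers 7, and on arrays numbered 5 and 6 alone 1. Of 30 G1/S and DNA replication genes, 2 rose (6.67%) and 1 fell (3.33%), with a median of 0.07. Over all genes, 6.27% rose and 6.36% fell, so this list did not stand out from the background. The single fall was lost with the replicate block and without the 2 h array numbered 4 or 5 or the 8 h array numbered 3. Without that 8 h array, 1 gene of the list was called higher, and with the macrophage mean 1 was called higher and 0 lower.

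The RefSeq promoter windows (GRCm38.p6) of Cdc20, at chr4:118437294-118437593 on the minus strand, and Bub1b, at chr2:118597961-118598260 on the plus strand, are shown for elements known from cell cycle promoters. Capitals mark the CCAAT box (CCAAT, or ATTGG on the other strand) and the letters TTTGAA of the cell cycle homology region.
Cdc20: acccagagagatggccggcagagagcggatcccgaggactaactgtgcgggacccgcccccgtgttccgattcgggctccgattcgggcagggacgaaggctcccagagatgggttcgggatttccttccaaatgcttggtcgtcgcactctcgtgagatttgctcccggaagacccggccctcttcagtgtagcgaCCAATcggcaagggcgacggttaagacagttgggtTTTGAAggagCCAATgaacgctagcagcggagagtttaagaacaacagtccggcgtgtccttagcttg
Bub1b: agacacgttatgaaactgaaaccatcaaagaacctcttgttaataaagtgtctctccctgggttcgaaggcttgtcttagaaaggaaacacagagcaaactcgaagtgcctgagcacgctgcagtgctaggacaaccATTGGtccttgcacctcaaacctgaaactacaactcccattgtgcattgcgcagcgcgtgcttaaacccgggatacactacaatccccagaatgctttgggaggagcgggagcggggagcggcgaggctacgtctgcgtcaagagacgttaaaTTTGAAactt
CCAAT occurred in 20 of the 23 list genes with a window (87.0%), beside 41.7% of all tested genes with a window and 37.4% of all windows. TTTGAA occurred in 18 of the 23 (78.3%), beside 17.3% of tested genes and 17.9% of windows. Both were searched on both strands, and the 2 motifs do not overlap in letters.

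The largest single rise was that of Nqo1, a quinone reductase induced by NRF2 and by the aryl hydrocarbon receptor. It read 6.62, 6.50 and 6.65 at 2 h on arrays 2, 3 and 4 and 6.42 and 6.68 on arrays 5 and 6. After 8 h it read 7.75 and 8.18 on arrays 2 and 3 and 7.91 and 7.43 on arrays 5 and 6. The change was 1.26 ± 0.11 (adjusted p = 5.79e-06) with no overlap, and the 2 untreated arrays and the baseline array, at 6.59, 6.72 and 6.10, lay with the 2 h arrays. Of 24 NRF2 antioxidant genes 2 rose (8.33%), Nqo1 and Gstp1 (0.32 ± 0.06), and 3 fell (12.5%). Over all genes, 6.27% rose and 6.36% fell, so these counts are near the background. The macrophage covariate left 1 rise and 0 falls. The count of falls was 0 with the replicate block and without the 8 h array numbered 2, and 1 without the 8 h array numbered 3 or the 2 h array numbered 2 or 3. Srxn1 (-0.30 ± 0.08) and Abcc1 (-0.30 ± 0.07) were among them, with adjusted p-values of 0.0727 and 0.0859 with the block.

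Cyp1a1 and Ahrr, both classical targets of the aryl hydrocarbon receptor, were also among the 20 largest rises, below the array median. Cyp1a1 read 6.43 to 6.86 over the 5 arrays at 2 h and 6.83, 7.36, 8.82 and 7.15 on arrays 2, 3, 5 and 6 at 8 h. The 8 h array numbered 5 stood highest, and the change was 0.87 ± 0.24 (adjusted p = 0.031). The call was lost without the 8 h array numbered 3 (adjusted p = 0.104) and without the 2 h array numbered 3 (0.0556), 5 (0.0695) or 6 (0.069). It was also lost with the macrophage mean (0.093) and on the log2(intensity + 32) scale. Ahrr changed by 0.66 ± 0.12 (adjusted p = 0.00282), with the times apart within each run.

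Other large rises had no list in common. Glrx, a glutaredoxin, read 10.91, 10.87 and 10.91 at 2 h on arrays 2, 3 and 4 and 10.53 and 10.33 on arrays 5 and 6. Values at 8 h were 11.94 and 11.99 on arrays 2 and 3 and 11.31 and 10.95 on arrays 5 and 6, a change of 0.90 ± 0.09 (adjusted p = 3.44e-05). Cyp11a1, the first enzyme of steroid hormone synthesis, rose by 0.81 ± 0.07 (adjusted p = 3.97e-06), with 0.92 and 0.69 in the runs. Traf3ip3, an adaptor of lymphocytes, rose by 0.69 ± 0.06 (adjusted p = 3.97e-06), from 8.92 to 9.06 at 2 h to 9.55 to 9.79 at 8 h. Nod1, a sensor of bacterial peptidoglycan, rose by 0.68 ± 0.07 and Tbxa2r, the thromboxane receptor, by 0.73 ± 0.08. Over the 20 largest rises the changes ran from 0.64 to 1.26. All 20 were apart within both runs, 14 were apart over all 9 arrays, and 4 differed between runs. Over the 20 largest falls, from -1.33 to -2.58, these counts were 20, 18 and 11. Among all genes tested, 8.83% were apart upward and 8.75% downward within both runs. Over all 9 arrays 3.98% and 4.23% were, and 1.96% differed between runs. Both sets of 20 were picked by the call, sign and size of this same change, so their separation is no independent support.

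**Figure D4:**
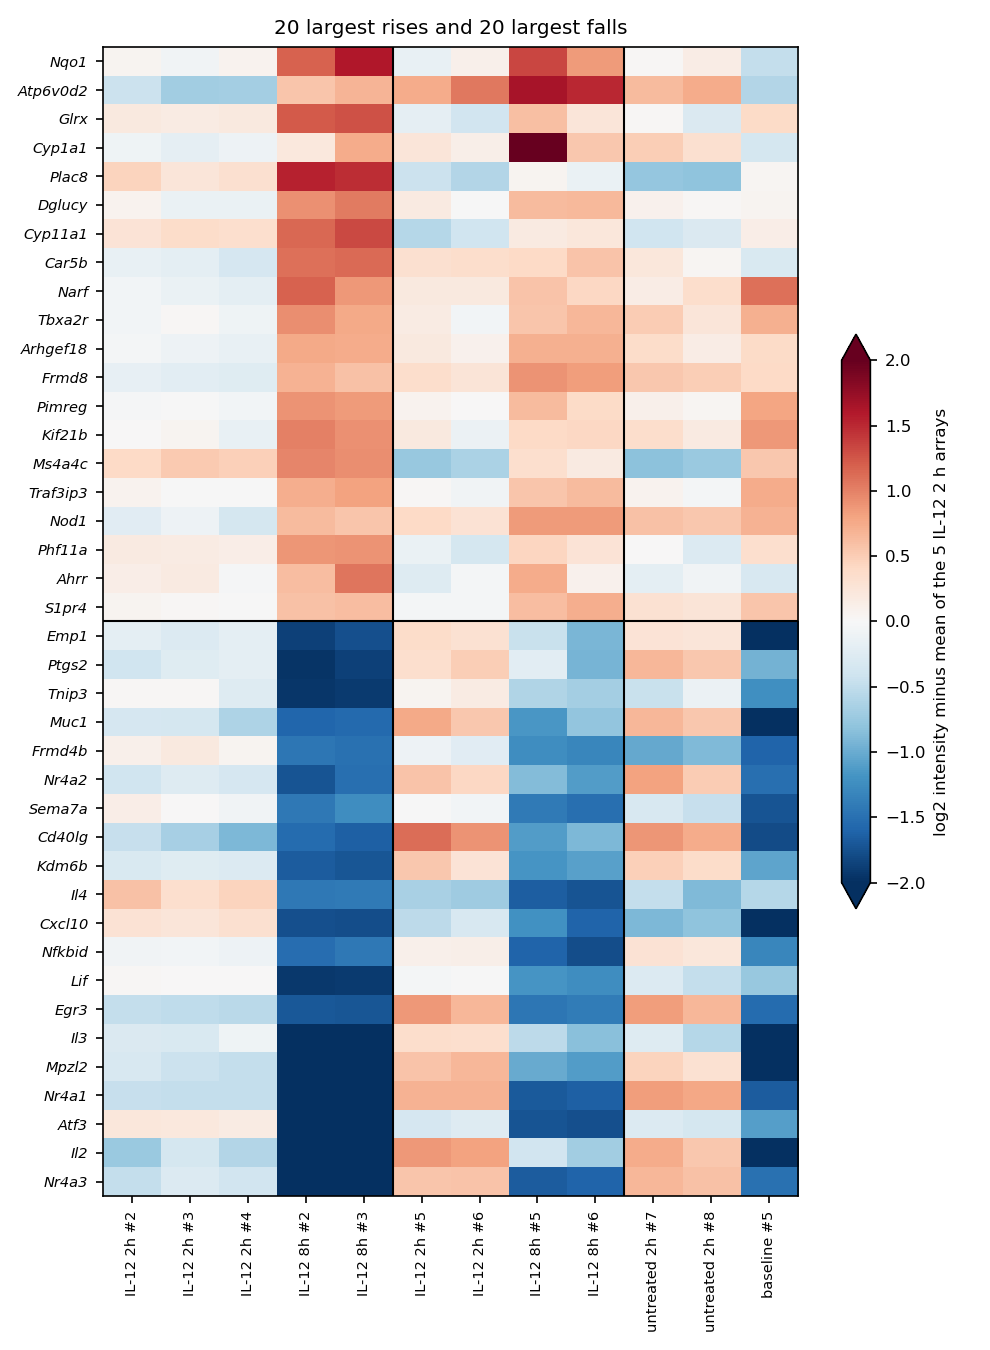
The 20 largest rises and 20 largest falls (rows) on each of the 12 arrays (columns, ordered by title number run with vertical lines between them), coloured by log2 intensity minus the mean of the 5 IL-12 2 h arrays, with colours ending at 2 and -2. The 4 IL-12 8 h columns are blue for all 20 falls, and for many of the falls the baseline column is blue as well.

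Metabolic lists moved little or unevenly. Of 20 cholesterol synthesis and uptake genes, 5 rose and 0 fell, with a median of 0.18. The median was 0.32 on arrays numbered 2 to 4, where all 20 were above 0, and -0.03 on arrays numbered 5 and 6, where 8 were. Sqle, squalene epoxidase, read 9.74 to 9.84 at 2 h and 10.75 and 10.67 at 8 h in the first run, and 10.58 and 10.57 against 10.78 and 10.64 in the second. Its 2 h values were thus the ones that differed between runs. Sqle changed by 0.57 ± 0.12 (adjusted p = 0.00729, 0.0637 with the replicate block and 0.168 with the macrophage mean). Dhcr7, the last enzyme of cholesterol synthesis, changed by 0.60 ± 0.10 (adjusted p = 0.00154). The list count was 1 with the replicate block, 1 with the macrophage mean, 2 without the 8 h array numbered 2 or 3 or the 2 h array numbered 2 or 4, and 3 without the 2 h array numbered 3.

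Fatty acid synthesis genes had a median of 0.01, with 6 of 12 members above 0. Scd1, Fads2 and Elovl6 were the 3 of the 12 that fell, by 0.85 ± 0.11, 0.65 ± 0.07 and 0.47 ± 0.07 on the log2 scale, and 0 rose. Scd1, the main desaturase, read 9.93, 9.84 and 9.80 at 2 h on arrays 2, 3 and 4 and 10.55 and 10.35 on arrays 5 and 6. After 8 h it read 9.33 and 8.66 on arrays 2 and 3 and 9.63 and 9.58 on arrays 5 and 6. No 8 h value reached a 2 h value, and the run values were -0.86 and -0.85. All 3 genes were also called with the replicate block and with the macrophage mean. On arrays numbered 5 and 6 alone, Scd1 (adjusted p = 0.00415) and Fads2 (0.015) were called and Elovl6 was not (0.19).

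Of 17 endoplasmic reticulum chaperones 8 rose and 1 fell, with a median of 0.20. Hyou1, a large chaperone of the HSP70 family, rose by 0.41 ± 0.07 (adjusted p = 0.0012) and Calr, calreticulin, by 0.28 ± 0.05 (adjusted p = 0.00362, and 0.053 with the replicate block). The fall was that of Herpud1 (-0.23 ± 0.06), with a count of 0 with the block, with the macrophage mean and without the 8 h array numbered 2. The count of rises was 3 with the block, 2 with the macrophage mean, 2 without the 8 h array numbered 3, 4 without the 8 h array numbered 2, and 5 without the 2 h array numbered 3 or 4. Of 29 oxidative phosphorylation subunits 5 rose and 0 fell, with a median of 0.15 and 27 members above 0. With the replicate block and with the macrophage mean 0 of these were called, without the 8 h array numbered 3 the count was 2, and without the 8 h array numbered 5 or the 2 h array numbered 2, 4 or 5 it was 3. Glycolysis genes numbered 2 rises and 2 falls among 16, with Slc2a1, the glucose transporter GLUT1, at 0.48 ± 0.08 and Aldoc at -0.67 ± 0.10, both with no overlap. The rises became 1 without any array numbered 2 or 3 or the 2 h array numbered 4, and the falls 1 without either array numbered 5 or the 8 h array numbered 3. Both counts were 1 with the replicate block and with the macrophage mean. Of 8 GIMAP GTPases, lymphocyte survival proteins, 3 rose, with Gimap7 at 0.53 ± 0.06, and 5 were called higher without the 8 h array numbered 6. The count of GIMAP rises was 2 with the replicate block, with the macrophage mean and without the 8 h array numbered 2 or 3. On arrays numbered 5 and 6 alone it was 1.

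For 387 genes (1.96%) the 2 h to 8 h change differed between the runs at an adjusted p under 0.05 in limma's interaction test on the 9 arrays. Of these, 288 had the larger change on arrays numbered 2 to 4, 99 on arrays numbered 5 and 6, and 241 had opposite signs. The count was 136 without the 8 h array numbered 2, 207 without that numbered 3, and 176 without that numbered 6. It was 206, 186 and 248 without the 2 h arrays numbered 3, 4 and 6. Cytokine genes held 12 of 24 such genes (50%), ATF4 and amino acid response genes 10 of 23 (43.5%), cholesterol genes 9 of 20 (45%) and immediate early factors 9 of 27 (33.3%), while G2/M genes held 0 of 29.

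ATF4 and amino acid response genes, which respond to a shortage of amino acids, had a median of -0.27 on arrays numbered 2 to 4 and 0.19 on arrays numbered 5 and 6, with 2 and 15 of 23 members above 0. All 10 that differed were lower in the first run. Outside the list, Slc6a9, a glycine transporter, and Slc1a4 were among the 4 genes with the smallest p for a run difference. Slc6a9 read 9.26, 9.37 and 9.25 at 2 h on arrays 2, 3 and 4 and 7.99 and 8.01 at 8 h on arrays 2 and 3. On arrays 5 and 6 it read 9.92 and 9.65 at 2 h and 10.42 and 10.65 at 8 h. It thus moved by -1.29 in the first run and 0.75 in the second (adjusted p of the difference 5.94e-05), and its pooled change was -0.36 ± 0.28 (adjusted p = 0.508). Slc1a4, a transporter of neutral amino acids, moved by -1.33 and 0.20 with the same adjusted p. Chac1, which degrades glutathione and is a standard ATF4 target, read 9.09 to 9.18 at 2 h against 7.96 and 8.03 at 8 h in the first run, and 10.02 and 10.10 against 9.53 and 9.92 in the second.

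Il24, a cytokine of the interleukin-10 family, was at 9.96 to 10.15 at 2 h and 8.52 and 8.66 at 8 h in the first run, and at 7.47 and 7.50 against 7.60 and 7.74 in the second. Its level at 2 h differed between runs by more than 2 log2 units, and its values of -1.50 and 0.19 differed with an adjusted p of 5.94e-05. Car5b, a mitochondrial carbonic anhydrase, rose by 0.80 ± 0.17 (adjusted p = 0.00752), with 1.35 in the first run and 0.14 in the second. It was not called with the replicate block (0.0666) or with the macrophage mean (0.131). Whether the runs differ in cells, reagents, handling or array processing is not given in the sources used here, and no such cause was tested.

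**Figure D5:**
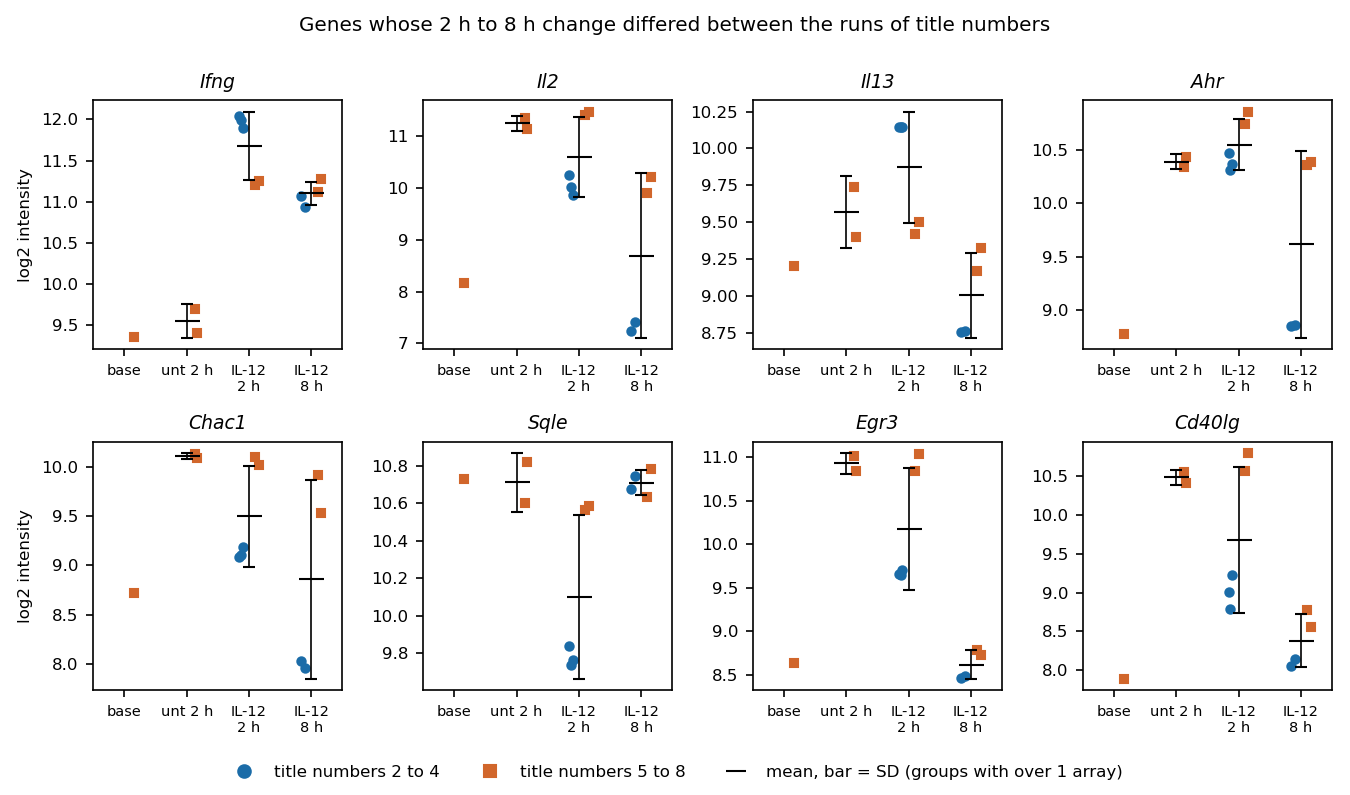
Log2 intensity (vertical axis) on every array by group for 8 genes whose 2 h to 8 h change differed between title number runs, with circles for numbers 2 to 4, squares for 5 to 8 and the mean with SD for groups of over 1 array. In Ifng and Sqle the 2 h arrays of the runs lie apart and the 8 h arrays lie close to each other, while in Ahr and Il2 the 8 h arrays of the runs lie further apart than the 2 h arrays.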

How the data were processed

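Intensities came from Affymetrix Mouse Gene 1.0 ST arrays of RNA extracted with TriZol. The deposited table holds linear intensity for 24922 probe sets. Per the submitters' processing notes, the authors used RMA in Affymetrix Power Tools (version not given), while annotation and genome build were not given in the sources used here. RMA fits arrays together and equalises their distributions, which removes shifts shared by most genes. Of the probe sets, 21425 had 1 gene symbol in GEO's platform annotation, 1399 several and 2098 none listed, and the last 2 kinds were left out. The brightest probe set stood for each of 921 genes with several, which gave 19752 genes. Their log2 was analysed without further normalization or a filter on dim genes. Arrays carry no depth.

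All 12 arrays entered limma 3.58.1 (lmFit and eBayes, R 4.3.3) with 4 group means and a term for title numbers 2 to 4 against 5 to 8 (7 residual and 6.84 prior degrees of freedom). The difference between runs was an interaction fitted on the 9 IL-12 arrays (5 residual degrees of freedom). Tests were two-sided, and a gene was called where its p, adjusted over the 19752 genes by Benjamini-Hochberg, was under 0.05. Deviations of same-numbered arrays from their group means correlated at 0.52, 0.36, 0.37 and 0.30 for numbers 5, 2, 6 and 3. After removal of the run, these correlations were 0.03, -0.26, 0.03 and -0.18. Only for number 5 was the same-numbered 2 h array the best match of the 8 h array. The labels state no pairing, and the main fit did not pair arrays by number. Only the replicate block did so.

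The members, the 47 gene lists (772 genes, 717 measured) and the alternatives were chosen with earlier results of these data known. Lists are described by counts and medians with no test. Named genes were the 20 largest rises and 20 largest falls with the same sign in both runs and a given name, up to 4 genes of each list with the smallest p, 14 IL-12 genes whatever their result, and the 4 with the smallest p for a difference between runs, 217 in all. Rises and falls outside this rule that were few within a list were named after their values were seen. Promoter windows came from RefSeq (GRCm38.p6), which held 179 of them. Plots were drawn with matplotlib 3.10.9 (Python 3.11.15). The fit was checked on simulated data.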

Additional observations from a re-analysis of the deposited data

Results flagged for a closer look

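In 8 of 434 checks of the named genes, 1 array stood far from the others of its group, by the gap to its nearest neighbour as a share of the group's range. Chance marks about 1 in 20 such groups. At 2 h, array 6 was highest for Jak2 (0.75), Tgfbr1 (0.736) and Mpeg1 (0.77), array 3 for Cd28 (0.836), array 4 for Ngp (0.785) and array 5 for Cd8a (0.823). At 8 h, array 5 was lowest for Batf3 (0.835) and array 6 highest for Il2ra (0.882).

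The 2 h to 8 h change differed between title number runs for 387 genes by the interaction test. Differences below are the change on arrays numbered 2 to 4 minus that on arrays numbered 5 to 6. Among cytokines and their ligand families they were -1.33 for Il2, -1.18 for Il3, -0.74 for Lif, -0.88 for Il4, -1.17 for Il13, -0.95 for Ifng, -1.68 for Il24, 0.84 for Il21, 1.11 for Cd40lg and -1.07 for Cxcl10. Among factors and feedback genes they were -0.69 for Nr4a3, 0.68 for Nr4a1, 0.99 for Egr3, -1.12 for Atf3, -1.11 for Tnip3, -0.74 for Gadd45b, -1.10 for Ahr, -0.82 for Cish and -0.61 for Socs1. Among surface, interferon and stress genes they were -0.76 for Pdcd1lg2, -0.87 for Iigp1 and -0.57 for Hspa1a. Among metabolic and amino acid genes they were 0.63 for Dhcr7, 0.79 for Sqle, -0.80 for Chac1, -0.62 for Slc7a1, -2.04 for Slc6a9 and -1.53 for Slc1a4. The remaining ones were 0.70 for Plac8, 1.21 for Car5b, 0.86 for Narf, 0.62 for Kif21b and -1.37 for D630039A03Rik. Of these genes, Nr4a1, Egr3, Il21 and Cd40lg fell more on arrays numbered 5 to 6.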

How the results depend on the processing

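The 2 h to 8 h counts of 1239 genes higher and 1257 lower stayed within 1.5 times of themselves under a fit of the 9 IL-12 arrays alone, arrays numbered 2 to 4 alone, repeated quantile normalization, log2(intensity + 32), a filter at the 40th percentile of intensity, averaged probe sets and eBayes with trend and robust settings. They moved to 412 and 459 with no run term, 487 and 759 with the replicate block on title numbers, 73 and 297 on arrays numbered 5 to 6 alone, 257 and 509 in the fit with the macrophage markers, and 80 and 321 when a change of at least 0.5 was asked for. No cause of these moves was tested. Arrays numbered 5 to 6 are also fewer than those numbered 2 to 4. Of the calls, 49.6% were higher, against 39.1% with the replicate block, 19.7% on arrays 5 to 6 and 33.6% with the covariate. Leaving out 1 array gave 634 to 1155 higher and 891 to 1202 lower genes. Genes apart within both runs, whose alternatives were chosen after seeing the data, numbered 1908 to 2387 higher and 1902 to 2555 lower with 1 array left out, where fewer arrays make separation easier. The 387 genes that differed between runs became 594 with the filter on dim genes, and 136 to 561 with 1 array left out. Of the 174 named genes called, 138 kept their call with the replicate block, which ended 36 calls. With the macrophage mean 113 kept it, with no run term 106, and on arrays 5 to 6 alone 78. The passages on single genes above do not give every fit that ended a call. No sign turned among those 174 under these settings. Among named genes not called, Slc6a9 at 0.75 and D630039A03Rik at 0.71 turned sign and were called on arrays 5 to 6 alone. Others turned sign there without a call, among them Il24 at 0.19, Slc1a4 at 0.20, Il12rb2 at 0.11, Socs3 at 0.07 and Cd79b at 0.03. Without the 8 h array numbered 3, 150 of the 174 kept their call. Signal over background limits 282 of the called genes (11.3%), which lay below the array median, beside 49.8% of all genes.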

Other observations

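Some genes outside the lists already described moved in both runs. Mpzl2, an adhesion protein of the immunoglobulin superfamily, fell by 1.69 ± 0.06 on the log2 scale (adjusted p = 4.59e-09), from 8.51 to 9.65 over the 2 h arrays to 6.80 to 7.99 over the 8 h arrays. Its run values were -1.70 and -1.67. Sema7a, a membrane-anchored semaphorin, changed by -1.39 ± 0.06 and Ptgs2, the inducible cyclooxygenase, by -1.34 ± 0.14. Emp1, a membrane protein, changed by -1.33 ± 0.11 and Frmd4b by -1.37 ± 0.09.

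Survival and purine signalling genes gave smaller values. Bcl2l11, which encodes the death-promoting protein BIM, fell by 0.52 ± 0.07 on the log2 scale. Bak1 rose by 0.33 ± 0.08 (adjusted p = 0.0106, 0.0579 with the replicate block and 0.202 with the macrophage mean). Nt5e, the ectoenzyme CD73 that makes adenosine, changed by -0.78 ± 0.08, and P2rx7, an ATP-gated channel, by 0.36 ± 0.06. Of 19 naive and quiescence genes, 3 rose and 4 fell, with a median of 0.03, and with the macrophage mean 0 were called higher and 1 lower. Klf2, a quiescence factor among the rises, changed by 0.36 ± 0.08 (adjusted p = 0.00649, 0.0571 with the block and 0.0633 with the macrophage mean). It was not called on arrays numbered 2 to 4 alone (0.078). Foxo1, Btg1 and Klf3 of the same list were called lower, but not on arrays numbered 5 and 6 alone.

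Gzmb, the granule protease granzyme B, had a value of -0.09 ± 0.05 (adjusted p = 0.313) and read 11.86 to 12.13 at 2 h and 11.80 to 11.99 at 8 h. Ctsw, cathepsin W of cytotoxic granules, rose by 0.51 ± 0.07 (adjusted p = 0.000228), from 9.13 to 9.56 at 2 h to 9.75 to 10.05 at 8 h.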
